A study of Mus musculus with 6 samples.

Results

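The core of the SWI/SNF chromatin remodelling complex was described at the transcript level in hind limb skeletal muscle in which 1 of its subunits, Baf155 (gene *Smarcc1*), had been deleted. The group holds 10 genes, chosen by their symbols and not by a rule on their values, though earlier results of these data were known. The genes are *Smarcc1*, its paralog *Smarcc2* (Baf170), the ATPases *Smarca4* (Brg1) and *Smarca2* (Brm), *Smarcb1* (Snf5), *Smarce1* (Baf57), *Actl6a* (Baf53a), and the Baf60 subunits *Smarcd1* (Baf60a), *Smarcd2* (Baf60b) and *Smarcd3* (Baf60c). All 10 were listed among the 20632 genes of the deposited read-number table and all 10 were among the 12116 genes that passed the filter on low counts. The libraries came from 6 male mice aged 3 months on a C57BL/6J background, 3 per genotype with 1 library per mouse, and each library was made from total RNA of the whole hind limb muscles of unexercised animals. The 3 mice labelled wild type (Baf155 WT) carried floxed *Baf155* alleles without Cre, and the 3 mice labelled Baf155 -/- (Baf155 ΔMF) carried the same floxed alleles with Cre under the muscle creatine kinase (MCK) promoter, so floxed alleles were common to all 6 animals. This Cre is active in myofibers and in cardiac muscle, whereas the blood vessels, connective tissue and immune cells of the same muscle keep an intact gene. Which exons were floxed was not given in the sources used here, and the counts covered the whole gene. Mice are numbered within a genotype only as names. WT mice 1 to 3 are titled MS13-3, MS15-2 and MS15-3, ΔMF mice 1 to 3 are titled MS13-1, MS13-2 and MS14-2, and what the prefixes MS13, MS14 and MS15 stand for is not stated.

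SWI/SNF complexes use the energy of ATP to slide or evict nucleosomes and so open promoters and enhancers to transcription factors. Baf155 and Baf170 pair with each other or with themselves as the scaffold on which a Baf60 subunit, Snf5 and Baf57 are assembled into a core module, and an ATPase module with either Brg1 or Brm and an actin-related protein is added late. Because several positions can be filled by either of a set of paralogs, cells change the makeup of the complex by changing which paralog they express. In muscle, Baf60c is known as the Baf60 paralog that works with the myogenic factor MyoD, and complexes with Brg1 or Brm are needed to switch on muscle genes.

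Paralogs with similar coding sequences could share reads, so the closest stretches were located first. The coding sequences of *Smarcc1* and *Smarcc2* were identical at 68.2% of 3215 aligned bases, and their longest identical run was 26 bases. *Smarca4* and *Smarca2* were identical at 73.6% of 4710 aligned bases, with a longest identical run of 20 bases. Among the 3 Baf60 genes, the identity ranged from 68.7% to 73.0% and the longest identical run was 21 bases. Identical runs were sought over whole coding transcripts, untranslated parts included, whereas the identity covers the coding sequence only. The best-matching ungapped 60-base window within a single exon of each gene is shown for each main pair, 5′ to 3′ on the coding strand (GRCm38, GENCODE M21). It shows how closely the paralogs can resemble each other within an exon. Windows across exon junctions were left out of the search. Capitals mark the bases that differ between the genes of a pair. The *Smarcc* windows are in exon 25 of 28 of each gene, at chr9:110213569-110213628 and chr10:128485620-128485679, both on the plus strand, and match at 57 of 60 bases. The *Smarca* windows are in exon 26 of 34 of *Smarca4* and exon 25 of 34 of *Smarca2*, at chr9:21677570-21677629 and chr19:26710578-26710637, also on the plus strand, and match at 54 of 60 bases.
Smarcc1: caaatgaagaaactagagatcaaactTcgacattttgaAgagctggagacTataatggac
Smarcc2: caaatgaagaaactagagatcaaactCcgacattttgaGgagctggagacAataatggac
Smarca4: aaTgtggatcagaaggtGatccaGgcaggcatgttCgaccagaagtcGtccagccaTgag
Smarca2: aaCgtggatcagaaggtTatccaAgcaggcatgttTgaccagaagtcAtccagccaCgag
Over the whole aligned coding sequence the paralogs differ more than in these windows. RSEM estimates can hold fractions of reads that fit more than 1 gene, and for 9 of the 10 core genes the estimates as deposited had no decimals in any of the 6 mice. The exception was *Smarca4*, with an estimate of 659.01 in WT mouse 2.

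The deposited totals ranged from 10601311 to 12469347 expected counts in Baf155 WT and from 8426053 to 10003429 in Baf155 ΔMF, and a count of 3 equalled 0.241 to 0.356 CPM (counts per 1 M counts of the library). Myofiber markers summed to between 132051 and 144598 CPM, between them the most abundant of the marker lists. On the first principal component of log2 CPM, which held 43.3% of the variance, WT mouse 1 was at -13.4, next to ΔMF mice 1 and 2 (-17.1 and -15.4) and away from WT mice 2 and 3 (25.0 and 22.5). ΔMF mouse 3, the only MS14 mouse, lay between at -1.6. WT mouse 1 therefore stood nearer to the Baf155 ΔMF mice of its own prefix than to its own genotype, and values without it are given where they bear on a result. MS14 held a ΔMF mouse only and MS15 held WT mice only. Outside MS13, prefix and genotype thus cannot be told apart, and the main fit has no term for the prefix. No 2 libraries of a genotype agreed within sampling noise.

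*Smarcc1*, the deleted gene, lies at chr9:110117708-110240178 on the plus strand. Its level, as CPM scaled by the trimmed mean of M values (TMM), was 23.4, 19.5 and 16.95 CPM in WT mice 1 to 3 and 7.05, 6.54 and 7.72 CPM in ΔMF mice 1 to 3. Every Baf155 ΔMF mouse was below every Baf155 WT mouse, as in 5.57% of all genes tested, and the ΔMF mice lay close together. These values rest on 241, 255 and 190 counts in Baf155 WT and on 66, 63 and 66 counts in Baf155 ΔMF. The mean fell from 19.96 ± 3.25 to 7.1 ± 0.59 CPM (SD, n = 3 mice each), leaving 35.6% of the Baf155 WT mean. The log2 fold change was -1.49 with a standard error of 0.15 and a 95% interval from -1.82 to -1.16 (edgeR quasi-likelihood F test, adjusted p = 0.00907 over all genes tested), which gave the smallest p-value of all 12116 genes. The call was lost without WT mouse 2 (adjusted p = 0.0616), ΔMF mouse 1 (0.0533) or ΔMF mouse 2 (0.0678) by the same edgeR test, while the log2 fold change stayed between -1.59 and -1.36 over the 6 fits that left out 1 mouse. Without WT mouse 1 it was -1.36 (edgeR, adjusted p = 0.000151), and within the MS13 prefix, where 1 WT mouse faced 2 ΔMF mice and no test was made, it was -1.79. Transcript from the remaining exons of recombined myonuclei and transcript from cells without Cre cannot be told apart in these counts, nor can fewer cells of a type and less RNA per cell in any whole-muscle value.

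*Smarcc1* was the only core gene with an adjusted p under 0.05, 1 of 10 genes, against a background of 3 of the 12116 genes tested, or 0.0248%. By the study's fold limits for differentially expressed genes (under 0.7 or over 1.4), combined here with an unadjusted p under 0.01, it was again the only core gene, where 1.11% of all genes passed. *Smarcc1* is the deleted gene, so neither count describes the rest of the core. The other 9 genes had 0 calls by edgeR, 0 by DESeq2 and 0 by limma-voom. At an unadjusted p under 0.05, 1 of the 9 (*Smarca2*) passed by edgeR and by limma-voom and 0 by DESeq2, whereas 7.95% of all genes passed by edgeR. In either direction, the genotypes did not overlap for 2 of the 10 core genes, *Smarcc1* and *Smarca2*, and for 10.8% of all genes tested. Leaving out the deleted gene, it was 1 of 9 genes, close to the share of all genes. The log2 fold changes of the 9 genes were above 0 for 6 genes and below 0 for 3, with a median of 0.08, while 49.8% of all genes tested lay above 0 and their median was -0.00095. The data bound these changes as follows: the 95% intervals of the 9 genes covered folds from 0.643, the lower end for *Smarcb1*, to 1.48, the upper end for *Smarcd1*.

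**Figure D1:**
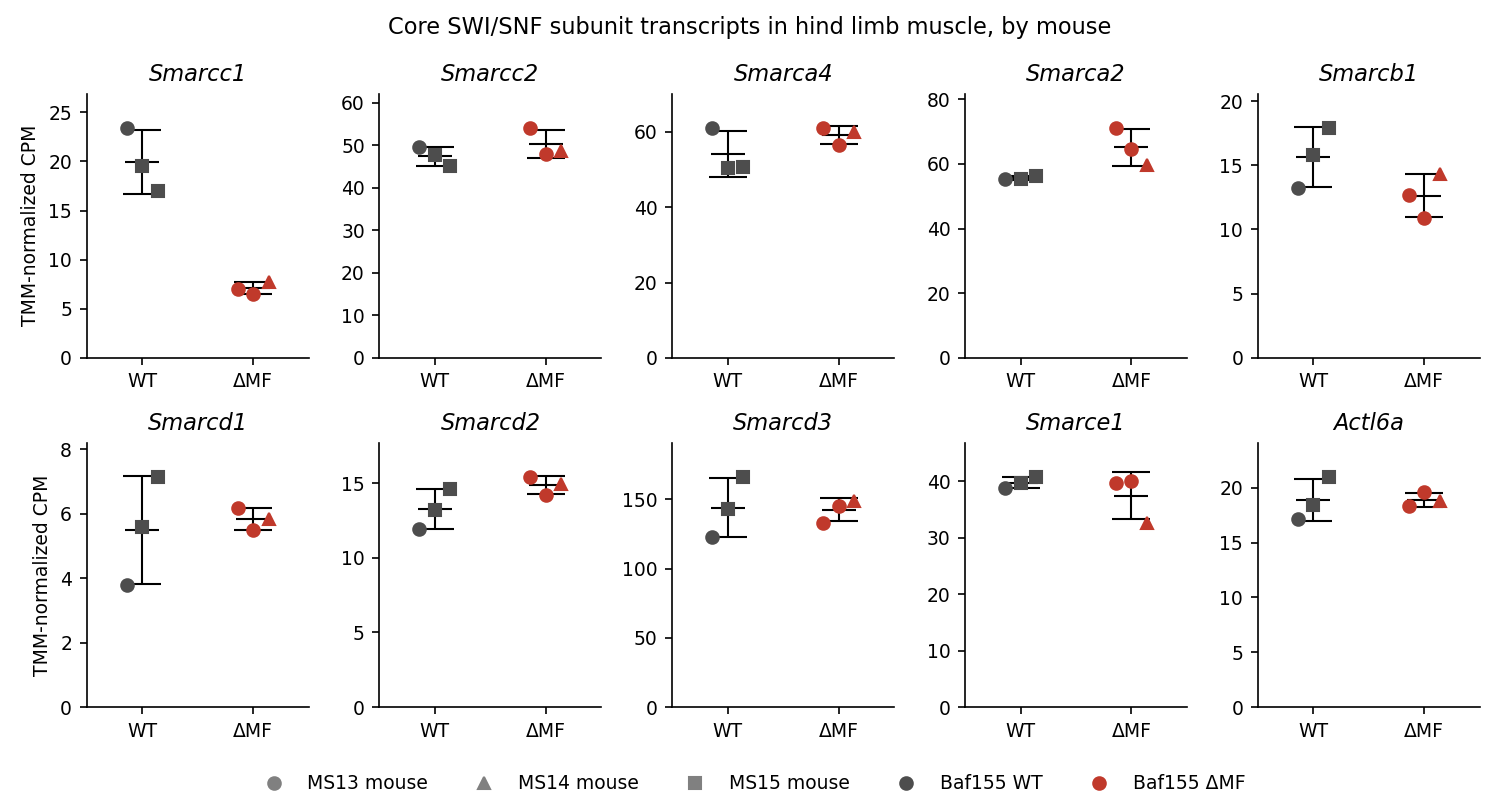
Level of each core gene per mouse, as TMM-scaled CPM on axes that start at 0, with 1 point per mouse, its title prefix as the point's shape, and the mean ± SD of each genotype (n = 3) as horizontal lines. The 3 Baf155 ΔMF points lie below the 3 Baf155 WT points for Smarcc1 (6.54 to 7.72 against 16.95 to 23.4 CPM) and above them for Smarca2, and the genotypes overlap in the other 8 genes.

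*Smarcc2* encodes Baf170, the paralog that can take the place of Baf155 in the scaffold. Its level was 49.6, 47.7 and 45.1 CPM in WT mice 1 to 3 and 54.1, 47.97 and 48.8 CPM in ΔMF mice 1 to 3. The genotypes overlapped, with 2 of the 3 ΔMF values inside the range of the WT mice. The means were 47.5 ± 2.26 and 50.3 ± 3.35 CPM (SD, n = 3 mice each), and the log2 fold change was 0.08 with an interval from -0.12 to 0.29 (edgeR, adjusted p = 0.796). In percent, the fitted difference was 6.0%, within an interval from a 7.82% fall to a 21.9% rise. A difference between the genotypes in *Smarcc2* was thus not detected, and a rise above 21.9% lay outside the interval.

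Because CPM grows with transcript length, the scaffold paralogs were next compared per kilobase of exon, using the union of the exons of their coding transcripts. The log2 ratio of *Smarcc2* to *Smarcc1* per kilobase was 1.42, 1.63 and 1.75 in WT mice 1 to 3 and 3.28, 3.21 and 2.99 in ΔMF mice 1 to 3. Every ΔMF ratio was above every WT ratio, so that Baf170 transcript outnumbered Baf155 transcript 3.04 ± 0.344 to 1 in Baf155 WT and 8.97 ± 0.894 to 1 in Baf155 ΔMF (SD, n = 3 mice each). The difference of 1.56 on the log2 scale had a 2-sided exact permutation p of 0.10, the smallest that 3 mice against 3 can give, and an adjusted p of 0.20 over the 6 tests on paralog families. The deleted gene is the denominator of this ratio. Its separation therefore repeats the lower *Smarcc1* level and does not test a change in *Smarcc2*. *Smarcc1* made up 24.9 ± 2.17% of the pair in Baf155 WT and 10.1 ± 0.941% in Baf155 ΔMF. These ratios and shares depend on the length used. Per kilobase of coding length, mean *Smarcc2* and *Smarcc1* were 13.04 and 6.03 CPM in Baf155 WT and 13.8 and 2.14 in Baf155 ΔMF. With those values the ratio was smaller and the *Smarcc1* share larger in both genotypes. *Smarcc2* was the more abundant of the pair in every WT mouse too.

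The summed level of the pair was 13.3, 12.3 and 11.4 CPM per kilobase in WT mice 1 to 3 and 11.6, 10.3 and 10.7 in ΔMF mice 1 to 3. The genotypes overlapped by 1 mouse on each side. The means were 12.3 ± 0.935 and 10.9 ± 0.662 CPM per kilobase (SD, n = 3 mice each), leaving 88.4% of the WT sum, and the exact permutation test gave p = 0.20 and an adjusted p of 0.30. *Smarcc1* lost 1.98 CPM per kilobase on average while *Smarcc2* was 0.552 higher. To make up the loss, *Smarcc2* would have had to rise by 21.5%, a value from the means alone. It is not resolved from the upper bound of the interval of *Smarcc2*, 21.9%. When the coding length was used instead of the exon length, an alternative chosen after the data were seen, the required rise was 29.8%, outside that interval, the sum was 83.7% of that in Baf155 WT, and all 3 ΔMF sums were below all 3 WT sums (exact permutation p = 0.10, the smallest possible). The sums also stopped overlapping with upper-quartile scaling and with library sizes alone (exact permutation p = 0.10 in each), with differences of -1.54 and -1.91 CPM per kilobase in place of -1.43. The sum contains the deleted gene, so a lower sum repeats the lower *Smarcc1* level and is no separate test of *Smarcc2*.

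**Figure D2:**
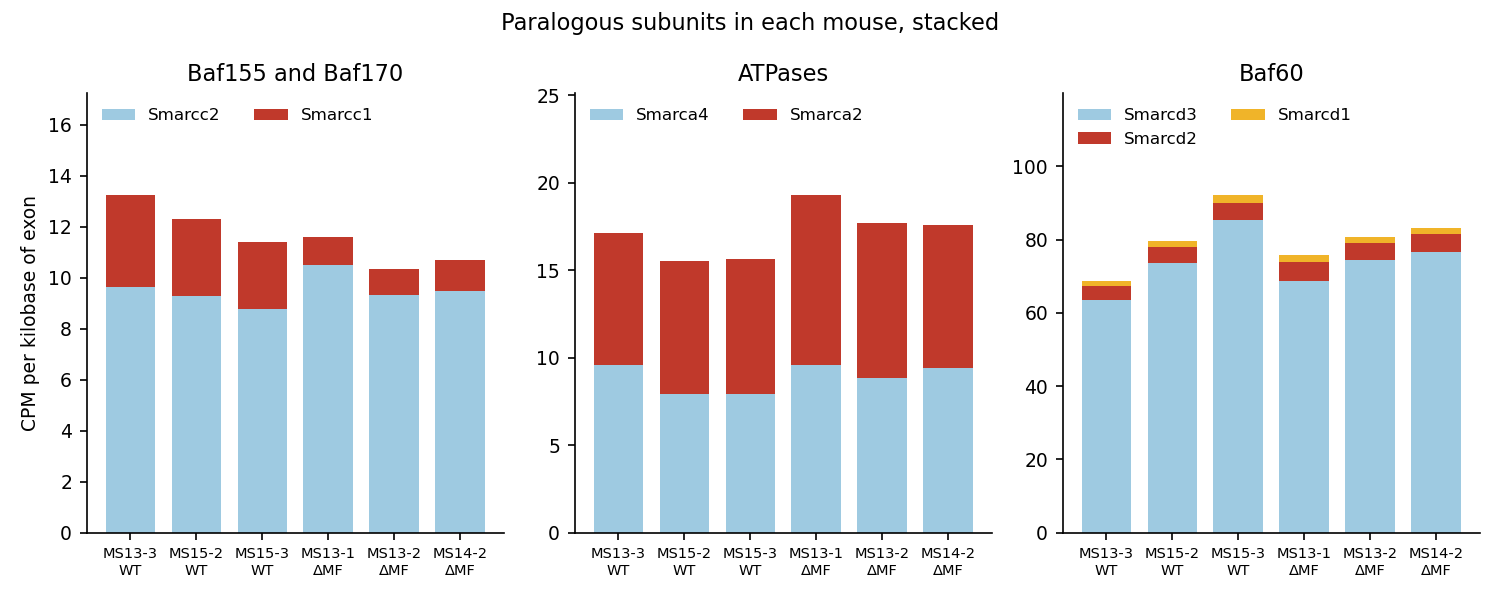
Level per kilobase of exon (CPM per kilobase) of the scaffold, ATPase and Baf60 paralogs in each mouse, stacked so that the height of a bar is the sum of the family. The Smarcc1 part shrinks in the 3 Baf155 ΔMF mice from 24.9% to 10.1% of the pair on average, the ATPases share their bars nearly evenly, and Smarcd3 fills at least 90.8% of each Baf60 bar.

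*Smarca2* and *Smarca4* encode Brm and Brg1, the alternative motor subunits, of which each complex holds a single one. *Smarca2* was at 55.2, 55.4 and 56.2 CPM in WT mice 1 to 3 and at 71.1, 64.6 and 59.8 CPM in ΔMF mice 1 to 3. All 3 ΔMF mice were above all 3 WT mice, which lay within about 1 CPM of each other. The means were 55.6 ± 0.544 and 65.2 ± 5.7 CPM (SD, n = 3 mice each), and the log2 fold change of 0.23 (95% interval 0.03 to 0.43) had an unadjusted p of 0.0292 that did not hold after adjustment over all genes (edgeR, adjusted p = 0.601). Among all genes tested, 5.2% had every ΔMF mouse above every WT mouse. Within the MS13 prefix the log2 fold change was 0.30, and over all alternatives it ranged from 0.16 to 0.30.

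*Smarca4* was at 61.02, 50.4 and 50.7 CPM in WT mice 1 to 3 and at 60.97, 56.5 and 59.99 CPM in ΔMF mice 1 to 3. WT mouse 1 was level with the highest ΔMF mouse, and the other two WT mice were below all ΔMF mice. The log2 fold change was 0.13 with an interval from -0.09 to 0.35 (edgeR, adjusted p = 0.706). It was -0.06 within the MS13 prefix and 0.23 without WT mouse 1 (edgeR, adjusted p = 0.141). Per kilobase, Brm made up 44.1%, 48.96% and 49.2% of the ATPase transcript in WT mice 1 to 3 and 50.5%, 49.96% and 46.5% in ΔMF mice 1 to 3. The means of 47.4 ± 2.86% and 48.98 ± 2.15% (SD, n = 3 mice each) did not differ beyond the spread between mice (exact permutation p = 0.50, adjusted p = 0.50). Brm and Brg1 transcripts were thus present in near-equal amounts in both genotypes. Their sum was 16.1 ± 0.902 and 18.2 ± 0.956 CPM per kilobase, a value for which no test was made.

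*Smarcb1* encodes Snf5, a core subunit that contacts the nucleosome. It was at 13.2, 15.8 and 17.9 CPM in WT mice 1 to 3 and at 12.7, 10.9 and 14.3 CPM in ΔMF mice 1 to 3. WT mouse 1 lay within the range of the ΔMF mice and the other two WT mice lay above it. The log2 fold change was -0.31 with an interval from -0.64 to 0.0093 (edgeR, unadjusted p = 0.0559, adjusted p = 0.622), the lowest value after that of *Smarcc1*. It was -0.16 within the MS13 prefix and -0.42 without WT mouse 1 (edgeR, adjusted p = 0.0862).

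*Smarce1* encodes Baf57, a core subunit with a DNA-binding HMG domain. It was at 38.8, 39.6 and 40.7 CPM in WT mice 1 to 3 and at 39.6, 40.1 and 32.6 CPM in ΔMF mice 1 to 3. ΔMF mouse 3 was the lowest and the other 5 mice lay within about 2 CPM. The log2 fold change was -0.08 with an interval from -0.31 to 0.14 (edgeR, adjusted p = 0.826), and it was 0.0094 without ΔMF mouse 3.

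*Actl6a* encodes Baf53a, the actin-related subunit of the ATPase module. It was at 17.2, 18.4 and 20.97 CPM in WT mice 1 to 3 and at 18.3, 19.6 and 18.8 CPM in ΔMF mice 1 to 3, and every ΔMF value lay within the WT range. The means were 18.9 ± 1.92 and 18.9 ± 0.686 CPM (SD, n = 3 mice each), with a log2 fold change of 0.0023 and an interval from -0.24 to 0.25 (edgeR, adjusted p = 0.996). Its sign changed with the scaling, to -0.06 with library sizes alone. *Actl6b*, which replaces Baf53a in neurons, had 0 counts in all 6 mice, with 3 counts equal to at most 0.356 CPM in a library.

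**Figure D3:**
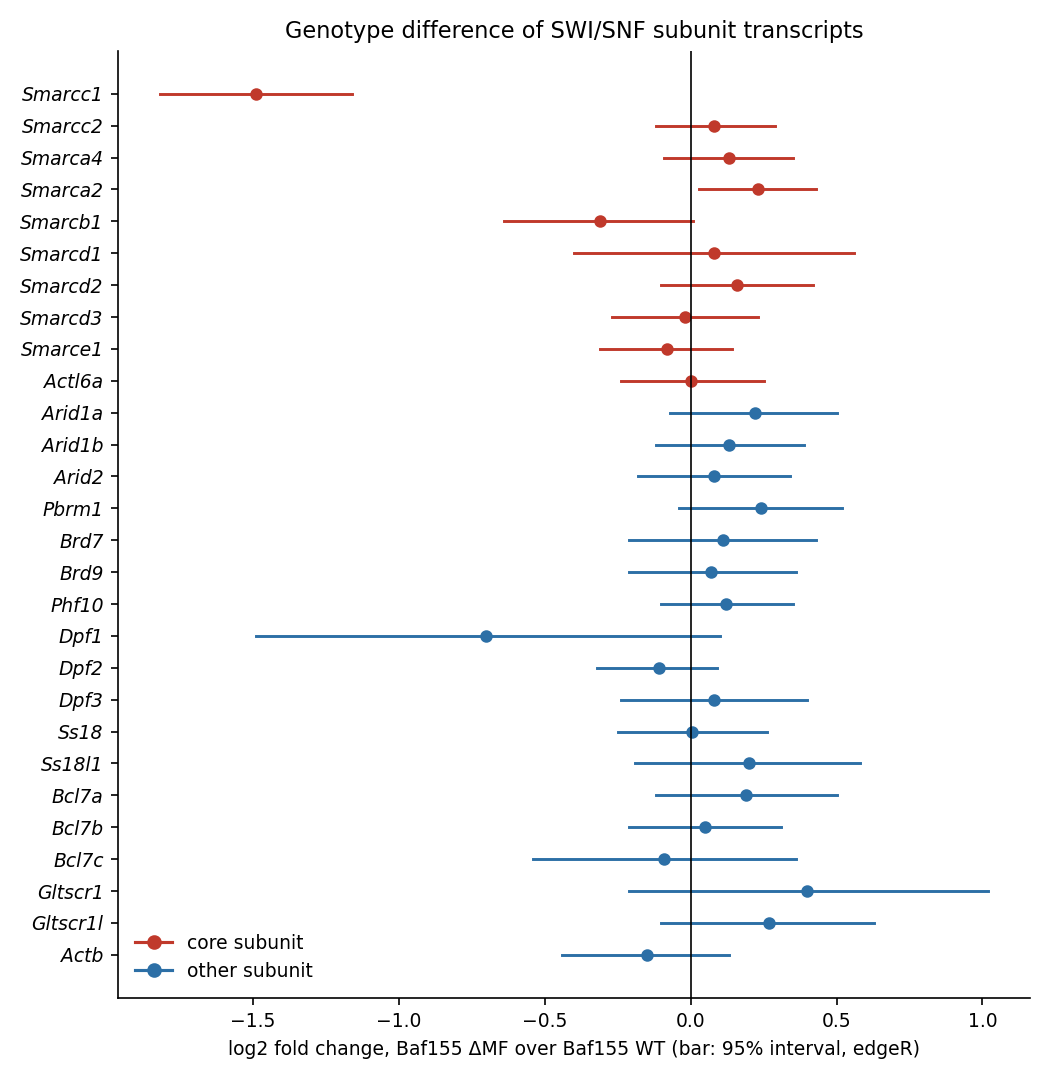
Log2 fold change (Baf155 ΔMF over Baf155 WT) of the 10 core genes (red) and the 18 tested other subunits (blue) from the edgeR fit, with bars for the 95% interval. The interval of Smarcc1 (-1.82 to -1.16) lies apart from those of the other 9 core genes, and among these 9 only that of Smarca2 (0.03 to 0.43) leaves out 0.

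The Baf60 subunits link the complex to transcription factors. *Smarcd3* (Baf60c) was at 123, 143 and 166 CPM in WT mice 1 to 3 and at 133, 145 and 149 CPM in ΔMF mice 1 to 3. All ΔMF values lay within the WT range, and the log2 fold change was -0.02 with an interval from -0.27 to 0.23 (edgeR, adjusted p = 0.969). *Smarcd2* (Baf60b) was at 11.95, 13.2 and 14.6 CPM in WT mice 1 to 3 and at 15.4, 14.2 and 14.97 CPM in ΔMF mice 1 to 3, with a log2 fold change of 0.16 and an interval from -0.10 to 0.42 (edgeR, adjusted p = 0.696). Only WT mouse 3 reached into the range of the ΔMF mice. *Smarcd1* (Baf60a) was the lowest core gene in Baf155 WT, at 3.79, 5.59 and 7.14 CPM, and was at 6.19, 5.5 and 5.85 CPM in ΔMF mice 1 to 3. The WT mice varied more than the ΔMF mice and enclosed them, and the interval of the log2 fold change of 0.08 was the widest of the 10 genes, from -0.40 to 0.56 (edgeR, adjusted p = 0.926). Within the MS13 prefix the log2 fold change of *Smarcd1* was 0.63, and without WT mouse 1 it was -0.11.

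Per kilobase, Baf60c dominated its family in every mouse. *Smarcd3* held 92.6%, 92.4% and 92.4% of the Baf60 transcript in WT mice 1 to 3 and 90.8%, 92.1% and 91.9% in ΔMF mice 1 to 3. Its share was lower in all 3 ΔMF mice than in any WT mouse, at 91.6 ± 0.712% against 92.5 ± 0.0891% (SD, n = 3 mice each; exact permutation p = 0.10, adjusted p = 0.20). The *Smarcd2* share was higher in all 3 ΔMF mice, at 6.16 ± 0.488% against 5.49 ± 0.258% (exact permutation p = 0.10, adjusted p = 0.20), and the *Smarcd1* share was 2.22 ± 0.224% against 2.04 ± 0.342% (exact permutation p = 0.50, adjusted p = 0.50). The shares of a mouse add up to the whole, so the lower *Smarcd3* share and the higher *Smarcd2* share are not independent results. Both p-values of 0.10 are the smallest possible for 3 mice against 3, so these differences of about 1 percentage point or less could not pass the 0.05 limit. Without ΔMF mouse 1, the difference in share went from -0.848 to -0.441 percentage points for *Smarcd3* and from 0.672 to 0.393 for *Smarcd2*. The summed Baf60 level was 80.1 ± 11.8 and 79.9 ± 3.89 CPM per kilobase.

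The relative abundance of the 10 transcripts was compared within each genotype on the same scale of CPM per kilobase of exon. In Baf155 WT, *Smarcd3* was first at 74.1 ± 10.9, which was 5.45 times the level of the next gene, *Smarce1*, at 13.6 ± 0.331 (SD, n = 3 mice each). Then came a close set of *Smarcb1* at 9.42 ± 1.42, *Actl6a* at 9.39 ± 0.956, *Smarcc2* at 9.23 ± 0.44, *Smarca4* at 8.48 ± 0.948 and *Smarca2* at 7.61 ± 0.0746 CPM per kilobase. Neighbours from *Smarcb1* down to *Smarca4* overlapped between mice, so their order is not resolved. *Smarcd2* followed at 4.38 ± 0.444, *Smarcc1* was the ninth at 3.08 ± 0.502 and *Smarcd1* the last at 1.66 ± 0.507 CPM per kilobase, without overlap between these neighbours. Baf155 transcript was thus among the scarcest of the core in Baf155 WT.

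In Baf155 ΔMF the order at both ends was the same except that *Smarcc1*, at 1.1 ± 0.091 CPM per kilobase, lay below *Smarcd1*, at 1.77 ± 0.104 (SD, n = 3 mice each), without overlap. *Smarcd3* was at 73.2 ± 4.07 and *Smarce1* at 12.8 ± 1.43 CPM per kilobase. The middle set was *Smarcc2* at 9.79 ± 0.653, *Actl6a* at 9.4 ± 0.341, *Smarca4* at 9.28 ± 0.37, *Smarca2* at 8.92 ± 0.781 and *Smarcb1* at 7.61 ± 1.01, and each neighbour overlapped with the next. *Smarcb1* was at the top of this set in Baf155 WT and at its bottom in Baf155 ΔMF, but its ranges in the genotypes overlapped. With coding lengths, *Smarcd3* and *Smarce1* were again first and second, and *Smarcd2*, *Smarcc1* and *Smarcd1* again held the last places in Baf155 WT.

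**Figure D4:**
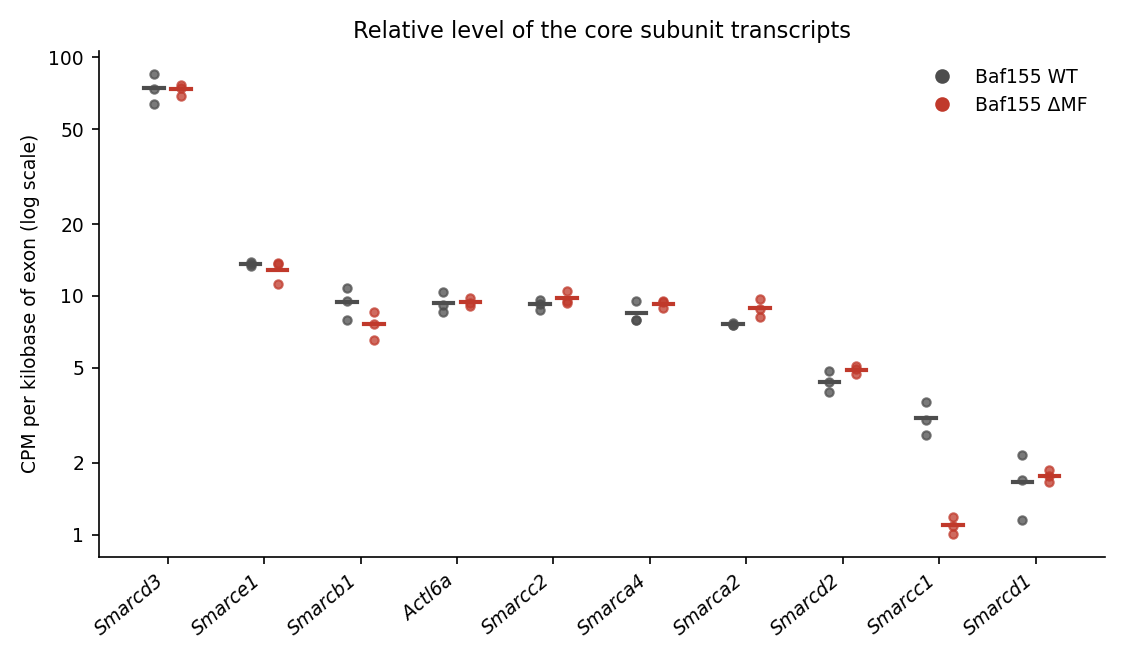
Level per kilobase of exon (CPM per kilobase, log axis) of the 10 core genes in order of their Baf155 WT mean, with 1 point per mouse and the genotype mean as a horizontal line. Smarcd3 stands above all others at 74.1 and 73.2 CPM per kilobase, 5 genes crowd between 7.61 and 9.79, and Smarcc1 passes below Smarcd1 in Baf155 ΔMF.

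The remaining subunits of the complex, a list of 21 genes that includes the targeting subunits with ARID domains and bromodomains, held 18 genes that could be tested. Calls were 0 of 18 by edgeR, 0 by DESeq2 and 0 by limma-voom, and each of these tools also gave 0 at an unadjusted p under 0.05. In the edgeR fit 14 of the 18 lay above 0 and 4 below, with a median log2 fold change of 0.10, where 49.8% of all genes lay above 0. The untested genes were *Actl6b*, *Bcl11a* and *Bcl11b*. The gene with the smallest unadjusted p was *Dpf1*, a subunit of neuronal complexes, at 1.36, 2.22 and 2.94 CPM in WT mice 1 to 3 and 0.961, 1.25 and 1.87 CPM in ΔMF mice 1 to 3, with a log2 fold change of -0.70 (interval -1.49 to 0.10; edgeR, adjusted p = 0.627). Its genotypes overlapped. *Pbrm1*, the bromodomain subunit of the PBAF form of the complex, had a log2 fold change of 0.24 (edgeR, adjusted p = 0.633), *Arid1a*, the ARID subunit of the BAF form, 0.22 (0.655), and *Gltscr1l*, a subunit of the GBAF form, 0.27 (0.66). *Dpf3*, a subunit known from heart and skeletal muscle, was at 11.4 ± 1.41 and 12.1 ± 1.64 CPM (SD, n = 3 mice each), with a log2 fold change of 0.08 (edgeR, adjusted p = 0.881). Without WT mouse 1, 2 of the 18 were called, *Pbrm1* with a log2 fold change of 0.38 (edgeR, adjusted p = 0.0346) and *Arid1a* with 0.37 (edgeR, adjusted p = 0.0412). That fit called 955 of the 12288 genes it tested, so calls were frequent among all genes as well.

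Markers of other cell types were summed in each mouse, since those cells keep an intact *Smarcc1*. The 8 macrophage and leukocyte markers summed to 125, 354 and 293 CPM in WT mice 1 to 3 and to 117, 116 and 187 CPM in ΔMF mice 1 to 3. All 8 had a log2 fold change below 0, with a median of -0.88, and 0 of them were called. WT mouse 1 lay within the range of the ΔMF mice in this sum. The 7 endothelial markers summed to 240 to 316 CPM in Baf155 WT and 315 to 340 CPM in Baf155 ΔMF, with all 7 above 0 and a median of 0.29. The myofiber markers summed to 138235 to 144598 CPM in Baf155 WT and 132051 to 137551 CPM in Baf155 ΔMF, without overlap, but the median log2 fold change of the 10 markers was -0.02, with 5 of 10 below 0. As for the leukocyte and endothelial sums, the ranges overlapped for the fibro-adipogenic (1616 to 2028 and 1448 to 2198 CPM), satellite cell (22.9 to 24.6 and 21.8 to 25.1), smooth muscle and pericyte (639 to 799 and 767 to 907), Schwann cell (24.9 to 35.6 and 25.96 to 37.5), adipocyte (32.3 to 65.6 and 28.2 to 42.1), erythroid (622 to 1227 and 371 to 805) and tendon lists (110 to 152 and 81.5 to 132). Log2 fold changes were below 0 for 4 of 6 fibro-adipogenic (median -0.34), 4 of 4 adipocyte (-0.46), 5 of 5 tested erythroid (-0.7) and 3 of 3 tendon markers (-0.25). They were below 0 for 3 of 3 tested satellite cell (-0.06), 1 of 5 smooth muscle and pericyte (0.13) and 0 of 5 Schwann cell markers (0.04). No list had a call or a gene at 0 in all mice, and the part of these cells in the values of the core genes was not tested. *Ckm*, whose promoter drives the Cre, was at 20712, 24465 and 24380 CPM in WT mice 1 to 3 and at 19359, 20460 and 20590 CPM in ΔMF mice 1 to 3, with a log2 fold change of -0.20 (edgeR, adjusted p = 0.668).

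Genes annotated on the opposite strand overlap 5 core genes (*Smarcc1*, *Smarca2*, *Smarcd1*, *Smarcd3* and *Actl6a*), and for 3 of them the read-number table lists the overlapping gene. The strand setting of the counting is not given in the sources used here, so reads in the shared bases could belong to either gene. *Dhx30*, which shares the first bases of *Smarcc1*, was at 41.2, 36.8 and 39.4 CPM in WT mice 1 to 3 and 34.9, 33.7 and 37.9 CPM in ΔMF mice 1 to 3, with a log2 fold change of -0.14 (edgeR, adjusted p = 0.688). *Chpf2* overlaps *Smarcd3* over chr5:24590818-24594556, a stretch that holds parts of exons 10 and 11 of *Smarcd3*. It had a log2 fold change of 0.15 (edgeR, adjusted p = 0.692). *Mrpl47*, which overlaps *Actl6a* over chr3:32725397-32726973, had 0.05 (edgeR, adjusted p = 0.907). None of these overlapping genes was called, and the part of shared reads in the core values was not tested.

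The genes whose log2 CPM followed that of *Smarcc1* most closely over the 6 mice were *Cnpy4* (Pearson r = 0.994), *Tpra1* (0.984), *Atf3* (0.968), *Abcg1* (0.965) and *Polr3k* (0.964). Since *Smarcc1* splits the mice by genotype, such genes were also lower in each ΔMF mouse, and r describes these 6 libraries without a test. *Atf3*, a stress-induced transcription factor, was at 21.5, 21.6 and 20.6 CPM in WT mice 1 to 3 and 9.93, 10.1 and 13.3 CPM in ΔMF mice 1 to 3, with a log2 fold change of -0.94 that was not called (edgeR, adjusted p = 0.0551). The pattern of *Smarcc2* was most like those of *Tmem127* (r = 0.997), *Aff1* (0.992) and *Csnk2a2* (0.991). Among the core genes, r with *Smarcc1* ranged from -0.856 for *Smarca2* to 0.599 for *Smarcb1*, over the same 6 libraries.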

How the data were processed

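Total RNA libraries from 3 Baf155 WT and 3 Baf155 ΔMF mice were compared. The values the authors deposited are expected counts, that is, read numbers estimated per gene and not normalized, and the total column is the sum of the 6 libraries and was not used. The submitters' processing notes name CASAVA 1.8.2, cutadapt 1.10, Bowtie2 2.2.7, TopHat2 2.1.1, RSEM 1.2.30, limma and the builds mm10 and GRCm38. The annotation and the strand setting are not given in the sources used here. The library kit was stranded. For 14.1% of genes the estimate had decimals in at least 1 mouse. The sources tie no mice to litters or batches. The p-values rest on the spread between these mice, which the edgeR fit estimates with information shared across genes.

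After rounding, the counts went through edgeR 4.0.16 (R 4.3.3): filterByExpr (minimum count 10, minimum total count 15), TMM scaling and the quasi-likelihood F test without covariate (common biological coefficient of variation 0.111). Benjamini-Hochberg adjustment covered the 12116 tested genes, with a limit of 0.05. Levels per length are TMM CPM per kilobase of the exon union of GENCODE M21 basic coding transcripts (GRCm38). The 6 measures of paralog families were compared by 2-sided exact permutation tests over mice (Python 3.11.15), adjusted together. Pearson r used log2 CPM with a prior count of 2. Alternatives were DESeq2 1.42.0, limma-voom 3.58.1, other scalings and filters, a robust fit, unrounded counts, a covariate for the title prefix and the omission of each mouse; the coding length and the study's fold limits with an unadjusted p under 0.01 were added after the data were seen.

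The members and lists were chosen with earlier results of these data known. Named genes were the 10 core genes, of the 21 other subunits those called and otherwise the 4 with the smallest p, *Actl6b*, *Dpf1*, *Dpf3*, *Ckm*, and the 5 genes most like *Smarcc1* and 3 most like *Smarcc2* by r. *Bicra* and *Bicral* are listed under their older symbols, *Gltscr1* and *Gltscr1l*. The genes overlapping core genes were named for their position.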

Additional observations from a re-analysis of the deposited data

How the results depend on the processing

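The lower *Smarcc1* level was called in 13 of 16 alternatives with a test (adjusted p from 1.87e-09 by DESeq2 to 0.0678 by edgeR) and kept its direction in all of them. These 16 include the fit with a prefix covariate, whose limit is given below. The log2 fold change of *Smarcc1* was -1.79 within the MS13 prefix and -1.59 to -1.36 when 1 mouse was left out. The count of all genes called, 3 in edgeR, was 22 by DESeq2, 5 by limma-voom and 17 without the filter, and 0 to 955 when 1 mouse was left out. The 955 were called without WT mouse 1, out of 12288 genes tested in that fit. The count was 0 without WT mouse 2 (451 genes at an unadjusted p under 0.05 by edgeR) and without ΔMF mouse 2 (568). Of the core genes, 0 to 1 were called when 1 mouse was left out. Of the other subunits it was 0 to 2, with the 2 in the fit that called 955 genes. With the prefix covariate, the log2 fold change was -0.06 for *Smarca4*, 0.17 for *Smarcd3* and 0.04 for *Smarce1*, each opposite in sign to that without it. *Actl6a* was at -0.01 with upper-quartile scaling, -0.06 with library sizes alone and -0.00022 with at least 10 counts in every mouse. Leaving out 1 mouse gave ranges from -0.06 to 0.08 for *Actl6a*, -0.11 to 0.30 for *Smarcd1*, -0.12 to 0.09 for *Smarcd3* and -0.13 to 0.0094 for *Smarce1*, from -0.103 to 2.78 percentage points for the *Smarca2* share and from -0.0107 to 0.325 for the *Smarcd1* share. The cause of these changes was not tested. *Smarcc2* lay between 0.02 and 0.12 under every alternative run. No paired analysis was possible because the labels give the genotypes no shared replicate numbers. The title prefix was used as a covariate instead (*Smarcc1* -1.78 by edgeR). Only MS13 holds both genotypes, so the genotype difference in that fit rests on 1 WT and 2 ΔMF mice. It is therefore the same contrast as the values within the MS13 prefix. Depth and spread limited the core genes to 95% intervals of 0.20 (*Smarca2*) to 0.48 (*Smarcd1*) on either side of the log2 fold change.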
